A study of Mus musculus with 4 samples.

Results

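NK and ILC1 cells were 344 of the 10817 cells that passed the quality filters, 317 of 4504 in the hCD2- fraction and 27 of 6313 in the hCD2+ fraction. They were chosen by their own RNA. A member carried 1 hashtag, at least 500 genes, at least 3000 UMIs (counted RNA molecules) and at most 10% mitochondrial UMIs. It had UMIs of at least 3 of 6 genes: Ncr1 (the activating receptor NKp46), Klre1 (a lectin-like receptor), the transcription factor Eomes, the granule genes Gzma and Prf1, and Klra8 (Ly49H). It had no Cd3e UMI, less than 2000 CPM of Cd74 and less than 500 of Prdm16 (CPM, UMIs of a gene per 1000000 UMIs of the cell). The levels of these 9 genes are therefore given as a description, with no test. The other genes were not used, but a gene that is expressed together with the counted ones moves with the choice.

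The cells came from mesenteric lymph nodes of 12 untreated mice, 15 days old, of the genotype Gm38411-iCre-hCD2 R26 tdTomato. Every mouse carried the same alleles: iCre and the human CD2 reporter under Gm38411, and tdTomato at R26. All cells had been sorted as negative for CD3 and B220 and positive for CD11c, MHC-II and tdTomato, so that they are the NK and ILC1 cells that passed a dendritic cell gate and not those of the node as a whole. The hCD2- and the hCD2+ fraction came from the same 12 animals, each under its own hashtag, and each fraction was a single library. A difference between fractions and a difference between the libraries cannot be told apart.

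NK cells are lymphocytes that kill infected or transformed cells with granule proteins such as granzymes and perforin and secrete interferon-γ. ILC1 are their mostly tissue-resident relatives, which share T-bet and NKp46 but carry CD49a (Itga1) and, in most tissues, little or no Eomes. Both read their targets through paired activating and inhibitory receptors, among them the Ly49 family (Klra genes), of which each mouse NK cell expresses its own subset. Type 3 ILC, another branch of innate lymphocytes, make IL-22 and IL-17.

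Sequencing gave 150904166 UMIs in 5603 called cells of the hCD2- library, and 178129025 in 8801 of the hCD2+ library. Members held a median of 20842 UMIs and 4718 genes in the hCD2- fraction, and 16812 UMIs and 4453 genes in the hCD2+ fraction. Mitochondrial UMIs were 1.44% and 1.08% of the total in the median. Each mouse gave 17 to 39 members in the hCD2- fraction, and 1 to 6 in 9 of 12 mice in the hCD2+ fraction. Of the kept cells, 8 shared a barcode between the libraries, none of them with the same hashtag, and no barcode was a member in both. Levels below are CPM of the summed UMIs of a mouse's members unless pooled values are named, and intervals on pooled counts or shares cover counting error only.

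NK and ILC1 cells made up 5.32% to 13.3% of a mouse's hCD2- cells (7.31% ± 2.24, SD, n = 12 mice) and 0% to 1.22% of its hCD2+ cells (0.436% ± 0.364, n = 12). The share was lower in the hCD2+ fraction in 12 of 12 mice, by -6.88 percentage points (two-sided permutation test, p = 1e-05, the smallest that 100000 permutations can give). With signs flipped within each mouse the exact p was 0.000488, and the 2 sets of 12 values did not overlap. Mice 3, 5 and 9 held no hCD2+ member among 383, 764 and 430 kept cells, which allows shares of up to 0.783%, 0.393% and 0.698%. With only cells under the Cd74 and Prdm16 ceilings as the denominator, the shares were 17.3% ± 4.29 and 1.36% ± 1.03.

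**Figure D1:**
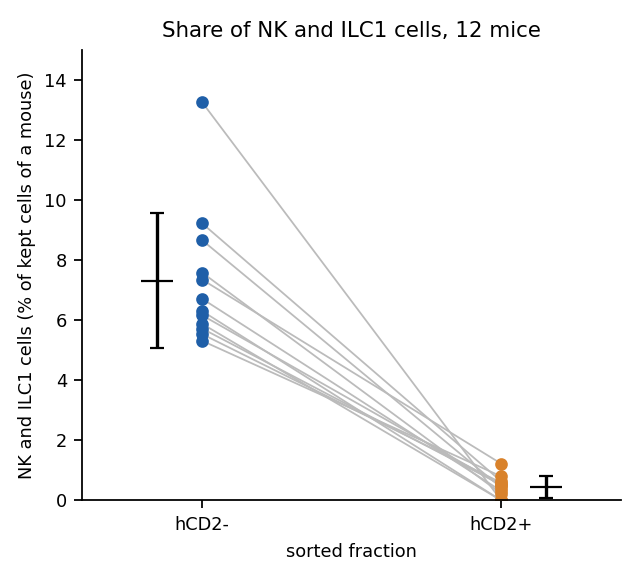
Share of NK and ILC1 cells among the kept cells of each mouse (y axis, percent) in the 2 sorted fractions (x axis). Points are 12 mice, grey lines join the fractions of a mouse, and the bars beside them give mean ± SD. All 12 hCD2- points (5.32% to 13.3%) lie above all hCD2+ points (0% to 1.22%).

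The label was held against Ncr1, Klre1, Eomes, Gzma, Prf1 and Klra4 (Ly49D, an activating Ly49 receptor), of which Klra4 alone stood outside the rule. Klra4 ranged from 341 CPM over a median of 517 to 1040.4 CPM in the 12 hCD2- mice, with a UMI in 50.5% of members (95% exact binomial interval 44.8% to 56.1%). In CD8 T-like cells of the same library it was seen in 1.24% of cells, and in droplets of free RNA it stood at 32.7 CPM. Ncr1 was at 320 ± 61.1 CPM (SD, n = 12) and in 92.1% of members, against 2.17% of CD8 T-like cells. Klre1 was at 571 ± 52.9 CPM, Eomes at 370 ± 56.6, Prf1 at 63.2 ± 23.0 and Klra8 at 218 ± 99.0 CPM. Gzma was at 706 ± 296 CPM and ranged from 261 to 1218 CPM between mice. Pooled CD8 T-like cells held Ncr1 at 5.79, Klre1 at 33.7, Eomes at 129 and Gzma at 53.2 CPM. The genes counted by the rule had to be high in the members, and Klra4 alone was not counted. It is a near-copy of the counted Klra8, however, so that it does not stand fully apart from the rule.

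Of the hCD2- members, 91 had exactly 3 of the 6 genes, 104 had 4, 94 had 5 and 28 had all 6. Just outside the rule stood 39 hCD2- cells with exactly 2 genes that met every other criterion. Pooled Klra4 was 610 CPM in the members with exactly 3 genes, 640 in those with more and 363 in the cells with 2. Klrb1c, which encodes NK1.1, was at 384, 366 and 244 CPM in the same order. A Cd3e UMI alone removed 87 hCD2- cells, 9 of them with a single UMI. Those 9 held pooled Klra4 at 435 CPM and the T cell receptor gene Trac at 8.45 CPM, whereas the cells removed with more Cd3e UMIs held Klra4 at 10.9 and Trac at 586 CPM. The Cd74 ceiling alone removed 10 hCD2- cells, and 39 members lay between 1000 and 2000 CPM of Cd74.

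Markers of other cells were counted in the hCD2- members. Trac was at 6.91 ± 3.53 CPM (n = 12), under the 136 CPM of the free RNA in droplets. Cd3d, Cd3g and Trbc1, in contrast, had a UMI in 51.1%, 58.0% and 82.0% of members, at 65.0 ± 13.1, 92.3 ± 23.7 and 240 ± 43.7 CPM, while droplets held 72.8, 119 and 109 CPM. Among 11 genes of monocytes, macrophages and granulocytes, Fcgr1, S100a8, S100a9, Ly6g and Mcpt8 were at 0, and the sum of the list was 2.45 to 14.3 CPM per mouse. The dendritic cell list summed to 532 to 1168 CPM, and Cd74, its member with a ceiling in the rule, was at 394 ± 110 CPM against 5084 in droplets. The part of free RNA and of other cells in the results below was not tested.

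The sort had gated on 3 products whose transcripts could be read. Itgax (CD11c) had 93.2 to 209 CPM in the 12 hCD2- mice, with a median of 150.0, and was seen in 88.6% of members. H2-Aa, an MHC-II chain, was at 239 ± 68.0 CPM against 3942 CPM in droplets, and Ciita, the MHC-II transactivator, at 3.76 CPM. The MHC-II transcript level was under that of the free RNA. The Cd74 ceiling of the rule, however, lies under the droplet level of Cd74. Genes expressed together with Cd74 moved with that choice. The reporter tdTomato was even between mice, at 366 to 455 CPM (402 ± 29.1), with a UMI in 98.1% of members. No UMI of Gm38411, hCD2, iCre or Cre was found in 317 hCD2- members, which allows up to 0.390 CPM each (3 counts over the group).

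For comparison, 644 CD8 T-like cells of the hCD2- fraction were taken, with UMIs of Cd3e and of Cd8a or Cd8b1, under the same ceilings, in the same 12 mice. They carry CD3 RNA although the sort was set on CD3-negative cells. Summed counts per mouse were compared by edgeR's quasi-likelihood test, with p-values adjusted over all tested genes by Benjamini and Hochberg, and a gene is called here where that p lies below 0.05. In such sums, fewer cells with a gene and less of its RNA per cell cannot be told apart. Listed genes that a gate had used, or with too few counts, were not tested. Differences are log2 fold changes (NK and ILC1 cells minus the other cells) ± SE. Of 7685 genes tested, 47.7% were called, 21.9% higher and 25.8% lower in NK and ILC1 cells, and the median difference of all genes was -0.05. Against this background a call alone says little of a gene, and sizes and ranges are given instead. The share of all tested genes without overlap between the groups is not given, so a lack of overlap alone also says little. CD8 T-like cells were also slightly shallower, with a median of 19356 UMIs.

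Of 15 tested transcription factors of NK cells and ILC1, 11 were higher, 2 lower and 2 not called, with a median of 0.87. Tbx21, which encodes T-bet, was at 142, 182 and 255 CPM (lowest, median and highest mouse) against 23.6, 31.0 and 46.4 CPM in CD8 T-like cells. The groups did not overlap (2.44 ± 0.12, edgeR adjusted p = 1.48e-16, higher in 12 of 12 mice). Bhlhe40, a regulator of cytokine output, was at 213, 290.1 and 416 CPM against 9.18, 27.4 and 45.4 CPM (3.47 ± 0.16). Irf8 (2.50 ± 0.22), Nfil3, needed for NK cell development (2.20 ± 0.15), Id2, which holds back E proteins (2.14 ± 0.17), and Zeb2, a factor of NK maturation (2.04 ± 0.25), also had no overlap between groups. The 2 lower factors were Ets1 (-0.62 ± 0.08, no overlap) and Tcf7, which encodes TCF-1 (-0.32 ± 0.08, lower in 10 of 12 mice, overlapping).

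Activating receptors and the Ly49 family differed most. Of 11 activating receptors 9 were higher, 1 lower and 1 not called (median 3.94), and all 7 tested Ly49 genes were higher (median 4.18). Klrk1, which encodes NKG2D, was at 596, 748 and 955 CPM against 7.87, 35.5 and 88.5 CPM (4.30 ± 0.25, adjusted p = 3.50e-15). Klrb1c was at 208, 406 and 559 CPM against 0, 6.90 and 25.9 CPM (4.99 ± 0.27, adjusted p = 8.51e-16). Cd244a, the SLAM-family receptor 2B4, differed by 5.88 ± 0.19 and Fcgr3, the Fc receptor CD16, by 3.94 ± 0.31, both without overlap. The lower one was Cd2, an adhesion receptor (-0.35 ± 0.10, lower in 10 of 12 mice).

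Klra4 differed by 7.90 ± 0.40 (341 to 1040.4 against 0 to 26.9 CPM, adjusted p = 1.92e-16). Klra3 (Ly49C) was at 90.9, 226 and 323 CPM against 0, 0.328 and 6.45 CPM (6.66 ± 0.33). Klra7 (Ly49G), at 87.3, 207 and 448 CPM, was nearest to the T cells, which had 0, 17.1 and 72.4 CPM (3.58 ± 0.37). None of these 3 genes overlapped between the groups. Klra1 (Ly49A) differed by 5.40 ± 0.43. Klra genes are near-copies of each other, and so are Klrc and Klrb1 genes. Reads at their 3' ends could be split between copies, so that single members are less certain than the family.

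Among the NKG2 and other lectin-like or inhibitory receptors, 6 of 7 tested genes were higher and 1 lower (median 3.05). Klri2, whose product pairs with that of Klre1, was at 308, 385 and 468 CPM against 0, 1.20 and 5.30 CPM (7.97 ± 0.20, adjusted p = 7.37e-24). Klrd1, the CD94 partner of the NKG2 receptors, differed by 1.93 ± 0.09, and Klrc1, the inhibitory NKG2A, by 2.41 ± 0.20. The gene that was lower, Cd96, encodes a receptor for nectin-like ligands (-0.72 ± 0.15, lower in 10 of 12 mice, overlapping).

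Of 11 signalling adaptors and kinases, 5 were higher and 5 lower (median 0.16). Tyrobp, which encodes DAP12, the adaptor of activating Ly49 receptors, was at 695, 796 and 994 CPM against 7.09, 18.8 and 68.4 CPM (4.91 ± 0.23, adjusted p = 3.20e-17). Fcer1g (4.26 ± 0.22) and the kinase Syk (4.81 ± 0.24) were on the same side. Lat, the scaffold of T cell receptor signalling, was at 4.91, 23.7 and 48.5 CPM against 176, 215 and 309 CPM (-3.36 ± 0.17, adjusted p = 2.67e-16). Cd247, the ζ chain, differed by -1.49 ± 0.09, and Zap70, the kinase it recruits, by -1.06 ± 0.11. The adaptors Tyrobp and Fcer1g with Syk thus stood higher, as did Sh2d1b1 and Sh2d2a. Cd247, Zap70, Lat, Hcst and Lck stood lower. Members had no Cd3e UMI, while CD8 T-like cells were chosen by Cd3e and Cd8a or Cd8b1. Genes of T cell receptor signalling that are expressed together with these, such as Lat, moved with that choice.

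Of 10 cytotoxic genes outside the rule, 8 were higher and none lower (median 0.72). Nkg7, a granule membrane protein, was at 566, 712 and 812 CPM against 263, 396 and 516 CPM (0.79 ± 0.09, adjusted p = 2.31e-08, no overlap). Serpinb9, an inhibitor of granzyme B, differed by 1.71 ± 0.17, and the death ligand gene Fasl by 1.86 ± 0.32. Gzmb was uneven: the lowest, median and highest hCD2- mouse had 0, 16.6 and 437 CPM, and 1 cell held 45.7% of its 396 UMIs. It did not pass the test (0.61 ± 0.63, adjusted p = 0.449, higher in 5 of 12 mice). Gzmb was seen in 14.5% of members, Gzmk in 8.20%, and Gzmm in 16.4%.

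Of 8 cytokine and chemokine genes, 7 were higher and none lower (median 1.77). Ifng was at 65.9, 172 and 506 CPM against 3.04, 26.6 and 76.3 CPM (2.61 ± 0.37, adjusted p = 6.66e-07, higher in 12 of 12 mice, with overlap at the edges). The inflammatory chemokine genes Ccl3 (5.19 ± 0.39) and Ccl4 (2.89 ± 0.32) did not overlap. Ccl5, of the same family, had 1386 to 3039 CPM against 263 to 1416 CPM (2.10 ± 0.25), and Xcl1, the ligand of XCR1 on cross-presenting dendritic cells, 447 to 1222 against 11.1 to 687 CPM (1.43 ± 0.34). Xcl1 was seen in 91.5% of members and Ifng in 50.8%.

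Of 14 cytokine receptors, 5 were higher and 3 lower (median 0.13). Il2rb, the signalling chain for IL-2 and IL-15, was at 518, 587 and 729 CPM against 109.9, 147 and 174 CPM (1.96 ± 0.08, adjusted p = 5.48e-19). Il12rb2 (3.07 ± 0.21) and Il18r1 (1.94 ± 0.15), through which NK cells receive IL-12 and IL-18, were higher without overlap. Il7r (-1.32 ± 0.18) and Tgfbr2 (-1.05 ± 0.11) were lower.

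Of 21 homing and maturation genes, 8 were higher and 9 lower (median 0.05). Itga2 (CD49b), the NK cell integrin, was at 213, 304 and 386 CPM against 4.05, 11.4 and 27.1 CPM (4.50 ± 0.17, adjusted p = 1.81e-19). The inflammatory chemokine receptor Ccr2 (3.79 ± 0.21) was higher. The receptors that guide lymphocytes through nodes were lower: S1pr1, the exit receptor, was at 10.8, 17.3 and 35.2 CPM against 127, 208 and 246 CPM (-3.54 ± 0.15, adjusted p = 1.55e-18), and Ccr7 at 28.9, 103 and 124 CPM against 271, 428 and 642 CPM (-2.33 ± 0.17). Itgae, the CD103 integrin of epithelial lymphocytes, differed by -4.67 ± 0.37. None of these 5 genes overlapped between the groups.

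Of 10 tested genes associated with mature NK cells 6 were higher than in CD8 T-like cells and 2 lower (median 2.27). Cd27, a receptor of less mature NK cells and of T cells, was at 83.0, 116 and 147 CPM against 136, 158 and 212 CPM (-0.49 ± 0.09, adjusted p = 5.22e-05, lower in 11 of 12 mice, overlapping) and was seen in 82.6% of members. Itgam (CD11b) was seen in 17.7% at 18.7 ± 5.85 CPM, under the 26.5 CPM of droplets, while Klrg1 was seen in 6.94% and S1pr5, the receptor by which mature NK cells leave tissues, in 7.57%. Proliferation genes were higher than in CD8 T-like cells for 12 of 15 and lower for none (median 1.10). Mki67 was at 101, 331 and 767 CPM against 25.7, 155 and 422 CPM (1.07 ± 0.33, adjusted p = 0.00861, higher in 8 of 12 mice, overlapping). A Mki67 UMI was found in 39.7% of members, and in 10% to 53.3% of the members of a mouse.

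The T cell list moved the other way: 10 of 11 tested genes were lower and 1 higher (median -3.08). Members had no Cd3e UMI, while CD8 T-like cells were chosen by Cd3e and Cd8a or Cd8b1. Genes expressed together with these were thus set apart by the gates, and their differences describe the choice. Trac was at 0, 6.56 and 11.9 CPM against 519.7, 648 and 744 CPM (-6.47 ± 0.14, adjusted p = 2.78e-25), and Themis differed by -7.67 ± 0.24. The higher gene was Trdc, the constant region of the δ chain (1.42 ± 0.48, adjusted p = 0.0158, higher in 11 of 12 mice). Outside the lists, Eya1 (6.86 ± 0.33) and Gcnt1, an enzyme of O-glycan branching (6.65 ± 0.31), were among the largest higher differences, and Fam169b (-8.66 ± 0.22) among the largest lower ones. All 5 tested gate and reporter genes were higher: Itgax by 3.38 ± 0.20 without overlap, H2-Aa by 1.14 ± 0.20, and tdTomato by 0.19 ± 0.06, a call that was lost when every cell was thinned to 5000 UMIs (0.04, adjusted p = 0.754).

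**Figure D2:**
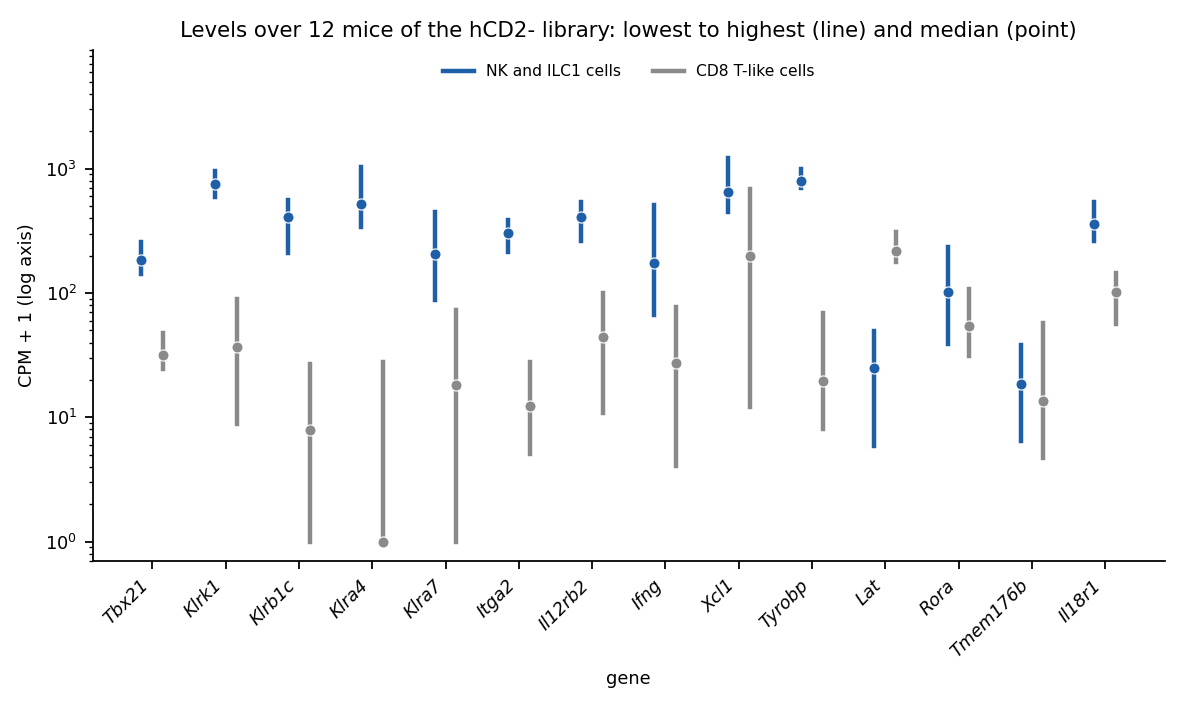
Levels of 14 genes in NK and ILC1 cells and CD8 T-like cells of the hCD2- library: lines run from the lowest to the highest of 12 mice and points are medians, on a log axis of CPM + 1. Lat alone of these genes lies lower in NK and ILC1 cells, and the lines of Tbx21, Klrk1, Klrb1c, Klra4, Klra7, Itga2, Il12rb2, Tyrobp, Lat and Il18r1 do not overlap between the groups. Lines that reach 1 include mice with no UMI.

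Of 13 tested genes associated with ILC1, 4 were higher than in CD8 T-like cells and 5 lower (median 0.02). Itga1, the CD49a integrin, was at 6.85, 28.7 and 68.9 CPM against 0, 3.54 and 19.5 CPM (2.26 ± 0.46, adjusted p = 0.000163, higher in 12 of 12 mice, overlapping). Rora, a factor of helper-like ILC, was at 37.9, 102 and 233 CPM against 30.0, 53.0 and 107 CPM (0.80 ± 0.25, adjusted p = 0.00902, higher in 9 of 12 mice). Among members with at least 4 of the 6 genes Rora was not called (0.41, adjusted p = 0.198). Inpp4b, a phosphoinositide phosphatase, differed by -3.48 ± 0.23 without overlap, and Cxcr6, which retains lymphocytes in tissues, by -1.30 ± 0.42, a call that DESeq2 did not make (-1.02, adjusted p = 0.0754). Outside that list, Kit, the stem cell factor receptor, was at 19.9, 42.5 and 189 CPM against 0, 1.84 and 11.2 CPM (4.20 ± 0.44, no overlap), with 150 CPM in droplets.

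**Figure D3:**
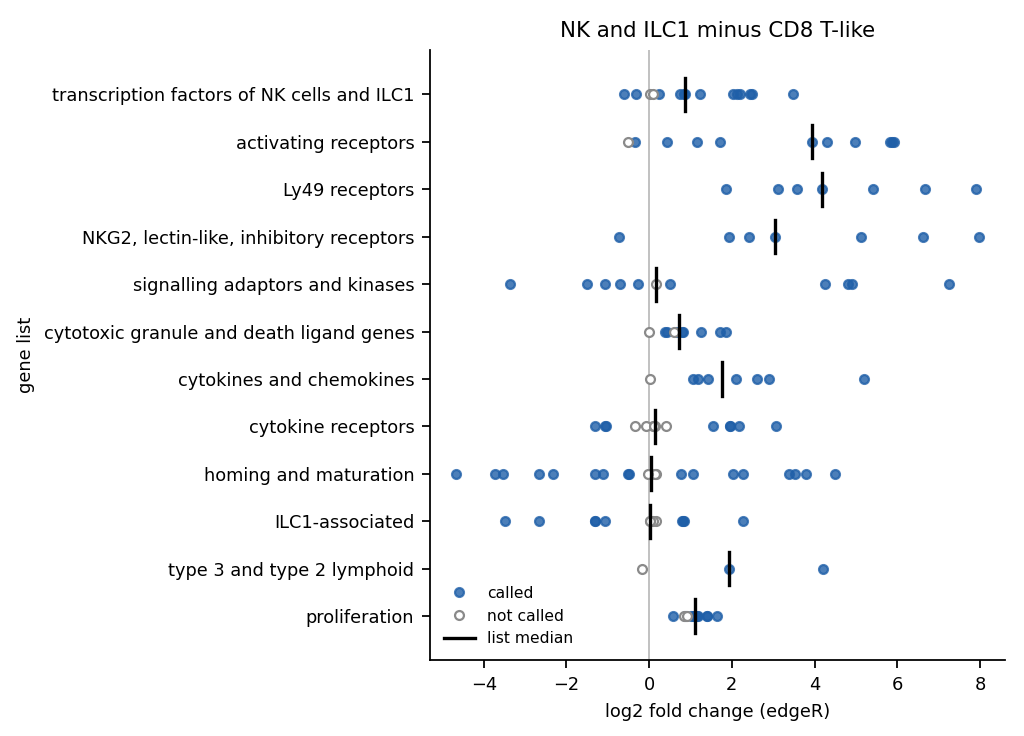
Log2 differences of single genes (points) by list, for NK and ILC1 cells against CD8 T-like cells, 12 mice a group. Filled points were called, open points not, and black bars are list medians. Genes with 3 or fewer UMIs in a group are drawn at the ratio of pooled levels or, with none, at its lower bound. All 7 Ly49 genes lie above 0, while homing genes lie on both sides.

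Within the hCD2- members the Ly49 genes varied from cell to cell. The 9 Klra genes counted lie on the minus strand of chromosome 6 in GRCm38 (the mm10 build), from Klra5 at 129898996 to 129917650 to Klra1 at 130363917 to 130386874, with Klra4 at 130043731 to 130067271 and Klra8 at 130115226 to 130129898 between them. The shares of members with a UMI were 50.5% for Klra4, 48.3% for Klra7, 39.7% for Klra10, 38.8% for Klra8, 32.8% for Klra3, 26.5% for Klra6, 20.5% for Klra9, 19.6% for Klra1 and 1.89% for Klra5. These shares follow depth and capture as well as expression and were not ranked. Klra5 came from 6 cells. At full depth 53 of 317 members had no Klra gene and 58, the largest number, had 4. After thinning to 5000 UMIs, which left out 1 cell, 77 of 316 (24.4%) had none, 56 had 1, 69 had 2, 66 had 3 and 48 had 4 to 6.

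Klra7 and Klra8 were seen more often in cells with Klra4 than in cells without it. After thinning, Klra7 was found in 42.6% of cells with Klra4 and in 20.8% of cells without, and Klra8 in 35.1% and 13.7%. Klrc1, whose product NKG2A is the inhibitory receptor of early NK cells, went the other way: Klra4 was found in 38.5% of cells with Klrc1 and in 61.2% of cells without. At full depth the same shares were 63.1% and 33.1% for Klra7, 53.8% and 23.6% for Klra8, and 44.7% and 64.8% for Klra4 by Klrc1. These shares describe cells pooled over 12 mice, with no test. Klra8 is counted by the rule, which ties it to the choice of members. Reads of Klra genes could also be split between near-copies, and the part of this in the shares was not tested.

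**Figure D4:**
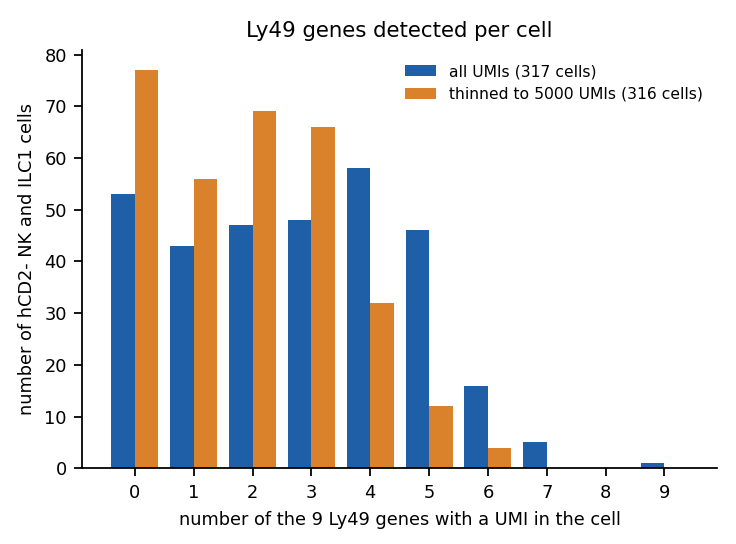
Number of hCD2- NK and ILC1 cells (y axis) by how many of the 9 Klra genes had a UMI (x axis), at full depth (317 cells) and after thinning to 5000 UMIs (316 cells). Both distributions are broad: 53 and 77 cells had none, and at full depth the largest group, 58 cells, had 4.

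The members were then divided by single genes, which was done after seeing the data and is given as a description of pooled counts with no test. Itga1, on chromosome 13 at 114953096 to 115101964 in GRCm38, had a UMI in 59 of 317 members (18.6%, 95% interval 14.5% to 23.3%), in every mouse and in 7.69% to 31.6% of its members. These 59 cells were shallower, with a median of 15853 UMIs against 21622 in the 258 without, and 50 of the 59 also held Itga2. Of 10657 genes with at least 20 UMIs, 50.8% were higher with Itga1 (median 0.01). Of 15 other ILC1-associated genes, Itga1 aside, 14 were higher with it (median 1.26), the exception being Il21r.

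Cxcr6 was at 56.6 CPM (95% interval 44.0 to 71.8) with Itga1 and 0.923 CPM (0.339 to 2.01) without, in 15 of 59 and 5 of 258 cells, and was higher in 11 of 12 mice. Cd200r1, an inhibitory receptor used to mark ILC1, was at 48.3 against 9.70 CPM, and Rora at 233 against 75.9 CPM (11 of 12 mice). Inpp4b was at 229 against 56.3 CPM, and Tmem176b at 41.6 against 13.1 CPM. Ifng was at 396 against 161 CPM and Fasl at 85.8 against 41.7 CPM. These genes lay higher in the cells with Itga1 in 8 to 11 of 12 mice.

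Most Ly49 genes lay lower in the cells with Itga1. Klra4 was at 167 CPM with Itga1 and 718 without (13.6% and 58.9% of cells), and lower in 12 of 12 mice. Klra1 (16.7 against 88.2 CPM) was lower in 12 of 12 mice too, and Klra3 (46.6 against 251 CPM) in 11. Klra7, at 271 against 235 CPM, did not follow and was higher in 5 mice. Of 9 Ly49 genes 3 were higher with Itga1 (median -1.42). Eomes was at 222 CPM with Itga1 and 384 without, but was still seen in 71.2% of the cells with Itga1, against 98.8%. Tbx21 was at 245 against 182 CPM, Zeb2 at 99.1 against 193, and Ccr7 at 11.7 against 102 CPM. Of 15 mature NK-associated genes 11 were higher with Itga1 (median 0.34), and Itga2, Klra4, Zeb2 and Irf8 were not. Eomes and, among the Ly49 genes, Klra8 are counted by the rule, which ties them to the choice of members.

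**Figure D5:**
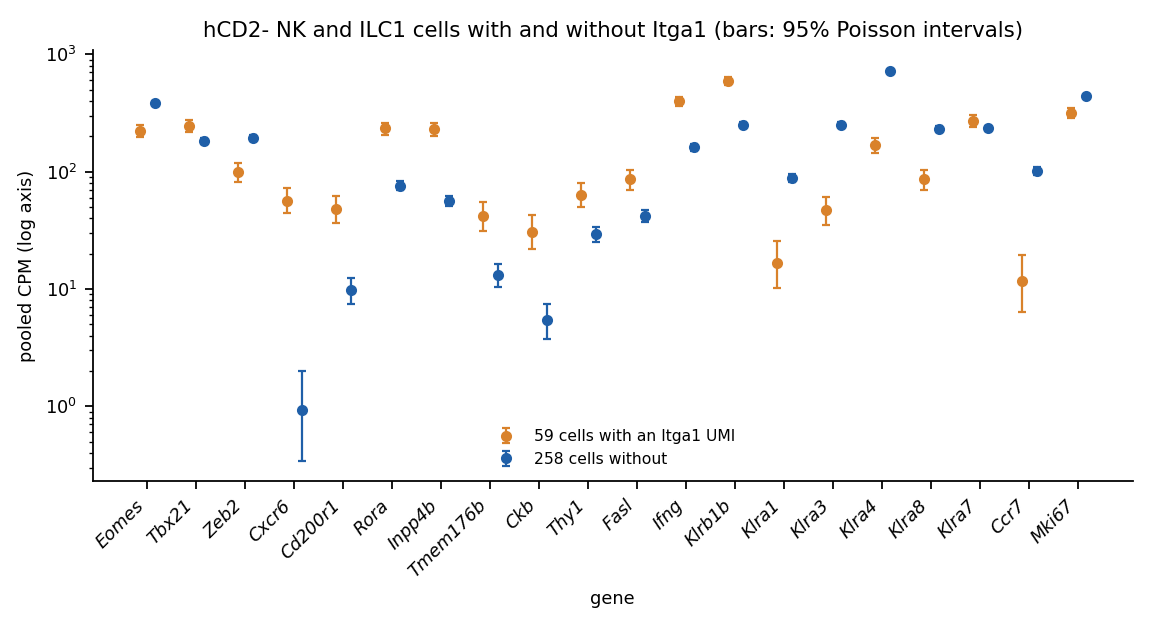
Pooled CPM (log axis) of 20 genes in the 59 hCD2- NK and ILC1 cells with an Itga1 UMI and the 258 without. Bars are 95% Poisson intervals of the summed counts and cover counting error only. Cxcr6, Cd200r1, Rora and Inpp4b lie higher with Itga1 (Cxcr6 56.6 against 0.923 CPM), and Klra1, Klra3, Klra4 and Ccr7 lower (Klra4 167 against 718 CPM).

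No Eomes UMI was found in 20 hCD2- members of 11 mice, too few for a comparison by mouse. These cells were shallower, with a median of 15823 UMIs against 21303, and after thinning to 5000 UMIs Eomes was seen in 74.1% of members, so that 0 UMIs does not show its absence. A member without Eomes had to hold 3 of the other 5 counted genes, so those are not compared. Klra4 was at 10.7 CPM without Eomes and 664 with it, lower without Eomes in 11 of 11 mice. Itga1 was at 234 CPM without and 17.9 with Eomes, and in 85% and 14.1% of cells. Cxcr6 (150 against 2.46 CPM), Rora (333 against 88.6 CPM) and Il7r (459 against 168 CPM) were on the same side as Itga1. Of 16 ILC1-associated genes 14 were higher without Eomes, with Cd69 and Il21r as the exceptions, while 48.1% of all genes were higher with it. Tbx21 was at 175 without and 193 with Eomes. Of the 20 members, 17 held an Itga1 UMI.

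The members were also divided by Klra4. These divisions use the same 317 cells and are not independent of each other. With Klra4 (160 cells, median 23916 UMIs, against 157 cells with 17869), 6 of 8 other Ly49 genes were higher (median 0.84), 2 of 16 ILC1-associated genes (median -1.35) and 4 of 14 cytotoxic genes (median -0.65), where 50.9% of all genes were. Gzma was at 468 CPM with Klra4 and 1126 without, Ifng at 93.6 and 340, and Rora at 31.0 and 195 CPM. Of 14 mature NK-associated genes, Klra4 aside, 4 were higher with Klra4 (median -0.49). Gzma, Prf1 and Klra8, which stand in the lists above, are counted by the rule, which ties them to the choice of members.

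Cells with Mki67 (126, median 29979 UMIs, against 191 with 17494) held 14 of 14 other proliferation genes at a higher level (median 5.05). All 12 activating receptors were lower in them (median -0.43), as were 15 of 17 transcription factors, where 47.6% of all genes were higher. Eomes was at 354 CPM with Mki67 and 365 without, and Klrb1c at 292 and 457 CPM. Ncr1 and Eomes, which stand in these lists, are counted by the rule, which ties them to the choice of members. The depth of the dividing cells moved with these differences, and its part in them was not tested.

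The 27 hCD2+ members were few, and pooled values with counting intervals are given first. Ncr1 was seen in 27 of 27 cells at 415 CPM (95% interval 367 to 467), Klrb1c in 27 at 451 CPM (401 to 506) and Tbx21 in 27 at 190 CPM (158 to 226). Eomes was at 216 CPM (182 to 254) in 25 cells. Of the rule's other genes, Gzma was at 1853 CPM in 24 cells, Prf1 at 139 CPM in 20 and Klra8 at 39.8 CPM in 6. Klra4, outside the rule, was at 228 CPM (193 to 268) in 6 of 27 cells (22.2%, interval 8.62% to 42.3%). At full depth 8 of the 27 had none of the 9 Klra genes, and 10 after thinning. The rule left out 15 hCD2+ cells with exactly 2 of the 6 genes, which held Klrb1c at 490 CPM and no Klra4.

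Only mouse 4 reached the 5 cells set for a comparison of fractions by mouse, with 6 hCD2+ members against 12 mice of the hCD2- fraction, and its single value is assumed to vary like the others. That arm has no spread of its own, and no gene is reported from it. Of 8776 genes tested there, 0.570% were called, 0.103% higher and 0.467% lower in the hCD2+ fraction. With mice of at least 3 cells, 5 mice (1, 4, 6, 11 and 12) and 20 hCD2+ members entered, and 2.10% of 6724 genes were called, 0.193% higher and 1.90% lower, with a median difference of all genes of -0.12 (hCD2+ minus hCD2-). That is 141 genes. With the mouse as a block, 22 of 4902 tested genes were called, in a fit that kept only the 5 mice with both fractions. The 2 counts thus differ in genes and mice as well as in pairing. Values below are from these 5 mice, and those that the block removed are named. The share of all tested genes without overlap between the fractions is not given, so a lack of overlap alone says little here too.

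The reporter differed. In mice 1, 4, 6, 11 and 12 tdTomato was at 113, 22.5, 249, 265 and 379 CPM in hCD2+ members, against 366, 395 and 455 CPM (lowest, median and highest) in the 12 hCD2- mice. The highest value alone reached the hCD2- range (-1.20 ± 0.27, edgeR adjusted p = 0.0171, lower in 5 of 5 mice). With the mouse as a block it was not called (-1.34, adjusted p = 0.258). A tdTomato UMI was found in 15 of 27 hCD2+ members (55.6%, interval 35.3% to 74.5%), although the sort had required tdTomato. Pooled tdTomato was 184 CPM (152 to 220) against 158 CPM in the droplets of that library. Gm38411 had 3 UMIs in 2 hCD2+ members and hCD2 had 3 in 1 member, while hCD2+ droplets held 23.7 and 25.7 CPM.

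All 5 tested gate and reporter genes were lower in hCD2+ members. H2-Aa, H2-Ab1 and H2-Eb1 among them are all MHC-II genes and do not count as separate results. The Cd74 ceiling of the rule applied in both fractions, and genes expressed together with Cd74 moved with that choice. Itgax was at 69.5, 89.9, 20.2, 25.7 and 126 CPM in mice 1, 4, 6, 11 and 12 against 93.2 to 209 CPM (-1.61 ± 0.30, adjusted p = 0.00420; with the block -1.47, adjusted p = 0.103). H2-Eb1 was at 86.8, 33.7, 47.0, 68.4 and 63.1 CPM against 114 to 222 CPM, without overlap (-1.56 ± 0.26, adjusted p = 0.00142). H2-Ab1 (-2.02 ± 0.39) and H2-Aa (-1.63 ± 0.37) were on the same side, and neither was called with the block (adjusted p = 0.103 for both). Without mouse 4 or 6 H2-Aa was not called (adjusted p = 0.0584 and 0.0595). H2-Aa was at 3942 CPM in the droplets of the hCD2- and 3110.3 CPM in those of the hCD2+ library.

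Of the lymphocyte genes, Ccr7 had no UMI in mice 1, 4 and 6 and 8.56 and 21.0 CPM in mice 11 and 12, against 28.9, 103 and 124 CPM in the hCD2- mice. That was 2 UMIs against 677 (ratio 0.0439, interval 0.00531 to 0.159), too few for the fit with the block, while the droplets of the hCD2+ library held Ccr7 at 417 CPM. Il21r was at 52.1, 11.2, 6.72, 8.56 and 42.1 CPM against 60.6 to 175 CPM, without overlap (-2.56 ± 0.52, adjusted p = 0.00815; with the block -2.24, adjusted p = 0.103). Tcf7 (-1.10 ± 0.22) and Ccl5 (-1.17 ± 0.22) were lower in 4 of 5 mice and lost the call with the block (adjusted p = 0.124 and 0.0597). Klra1, with UMIs in mouse 1 alone, was the 1 called of 7 Ly49 genes tested (median of the list -0.71), and leaving out any of mice 4, 6, 11 or 12 ended its call (adjusted p = 0.0561 to 0.0937). Klra4 was at 781, 146, 60.5, 240 and 0 CPM and did not pass the test (-1.46, adjusted p = 0.0984), but was called without mouse 1 (-2.53, adjusted p = 0.00185).

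Serpinb9 was at 252, 1213, 154, 402 and 799 CPM against 154 to 293 CPM, higher in 4 of 5 mice (1.15 ± 0.30, adjusted p = 0.0419). Without mouse 4 (0.59, adjusted p = 0.285) or mouse 12 (1.02, adjusted p = 0.0989) it was not called, nor with the block (0.77, adjusted p = 0.642). Ly6c2, a Ly6C gene, was at 60.8, 135, 0, 659 and 946 CPM against at most 79.8 CPM, with a median of 21.5 CPM (3.43 ± 0.67, adjusted p = 0.00570). It came from 6 of 27 cells, 1 of which held 52.1% of its 144 UMIs, and without mouse 11 it was not called (2.83, adjusted p = 0.0656). Lpin1 (1.10 ± 0.24) and Tuba1c (1.35 ± 0.31) were also higher, and neither was called with the block (adjusted p = 0.279 and 0.143). None of the 15 proliferation genes was called (median 1.01). Tox, a factor that NK cell development needs, was at 834, 78.6, 1001, 445 and 820 CPM against 569 to 893 CPM and was not called (-0.47, adjusted p = 0.426).

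Transcripts of type 3 lymphocytes were found in some hCD2+ members. The genes counted were Il23r, Il1r1, Ccr6, Il22 and Cd4, picked without a plan from a list of 14 type 3 and type 2 genes. At least 2 of the 5 genes were seen in 5 of 27 hCD2+ members (18.5%, 95% interval 6.30% to 38.1%), in 4 of 9 mice. They were seen in 0 of 317 hCD2- members, which allows up to 1.16%. Other genes of the list did not follow: Il17a, Areg and Il13 had no UMI in hCD2+ members. Ahr, Kit and Tnfsf11 were not called between fractions with at least 3 cells per mouse (their median 0.04). Il23r was at 81.1 CPM (60.7 to 106), with 53 UMIs in 6 cells, and Il1r1 at 42.8 CPM (28.5 to 61.9), in 6 cells. The droplets of the hCD2+ library held 365 and 169 CPM of these genes, those of the hCD2- library 34.1 CPM of Il23r. Rora was at 465 CPM (414 to 520) in the hCD2+ members, in 23 of 27, with 899 CPM in droplets, and its difference by mouse did not pass the test (1.33, adjusted p = 0.159), except without mouse 6 (1.70, adjusted p = 0.0304).

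The 5 cells with at least 2 type 3 genes held a median of 24471 and at most 26997 UMIs. All 5 had UMIs of Ncr1, Klre1, Eomes, Tbx21, Klrb1c, Il7r, Rora and tdTomato, 4 had Gzma and 3 had Prf1. Gm38411 was seen in 2 of the 5 and hCD2 in 1. Of the other 22 hCD2+ members, 10 had a tdTomato UMI. Droplets that hold 2 cells of 1 mouse share a hashtag, and such pairs and cells that express both programs cannot be told apart here.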

How the data were processed

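The deposited files were used as they stand: UMI counts per gene and barcode, with no normalization, and a table of the hashtag of each called cell. Counts were made by the authors with Cell Ranger 8.0.1 on mm10, per the submitters' processing notes, from 10x 3' libraries, per the labels' protocols. The hashtag table's posterior fraction, deposited by the authors, was not used. Multiplets, Blank and Unassigned barcodes were left out, and no other doublet caller was run. Members, lists and comparisons were chosen with earlier results of these data known.

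Sums per mouse went into edgeR 4.0.16 (TMM factors, filterByExpr, quasi-likelihood) under R 4.3.3. An adjusted p below 0.05 was the threshold. DESeq2 1.42.0 was an alternative. At least 10 cells per mouse were needed between cell groups, 5 between fractions. Free RNA was read from droplets of 10 to 100 UMIs. The edgeR script was tested on simulated data. Genes named were those of fixed lists, and, per comparison, the called genes of largest fold whose log2 CPM averaged 5 or more, with one direction in 3 of 4 mice. The planned comparison with type 3 innate lymphoid cells and results on some single genes are not reported here. The test planned for members with and without Eomes was not run, since no mouse had 10 cells without it. Same-numbered samples come from 1 animal: deviations of its 2 arms correlated across genes at 0.0455 on average (members and CD8 T-like cells) and 0.151 (fractions).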

Additional observations from a re-analysis of the deposited data

Results flagged for a closer look

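Barcodes without a single hashtag were left out of every comparison, and some of them met all the other criteria for NK and ILC1 cells. There were 12 in the hCD2- library, 10 of them Multiplets and 2 Unassigned, and 8 in the hCD2+ library, of which 6 were Multiplets, 1 was Unassigned and 1 Blank. They were noted because they lie in data that no comparison used.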

How the results depend on the processing

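The lower share in the hCD2+ fraction kept its direction and its side of the threshold under every alternative run (-3.58 to -16.0 percentage points). Against CD8 T-like cells, 3665 of 7685 tested genes were called, and 1420 of 3139 after thinning to 5000 UMIs. The 6 other settings gave 3391 (of 7472, members with no Trac UMI) to 5407 (of 18507, no filter on low counts). The numbers tested differ, so the counts of calls are not directly comparable. The mouse as replicate block gave 3580 there, and under it Gzmb, not called either way, turned to -0.083. Between fractions, 50 genes were called, 98 by DESeq2 and 141 with at least 3 cells, which became 160, 121, 171, 173 and 135 without mouse 1, 4, 6, 11 or 12. The fits that left out a mouse tested 7143 to 7175 genes. The replicate block with at least 3 cells called 22 of 4902 tested genes, 1 of them higher and 21 lower in the hCD2+ fraction. With 1 hCD2+ mouse no block could be fitted. Few cells per mouse limit the hCD2+ fraction, and a gene at 0 in its 27 members may lie at up to 4.59 CPM. The block and the left-out mice with at least 3 cells, members chosen without Cd3e or with no Trac UMI, and the division by single genes, were chosen after seeing the data. The count of type 3 genes in members was not planned either.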
